A study of Mus musculus with 12 samples.

Results

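DNA repair genes outside homologous recombination were followed in mouse prostate cancer cells and tumors after degradation of CDK12 and CDK13. The set holds 39 genes, taken by exact gene symbol from 40077 genes in the tables of the cells and 34508 in those of the tumors. Their roles are end joining, single-strand break repair, mismatch repair, base excision repair and nucleotide excision repair. RNA was sequenced in 4 groups of 3 libraries each. Myc-CaP, a prostate carcinoma line from transgenic mice with prostate expression of human MYC, was treated in culture with DMSO or with YJ1206 at 1 µM for 24 hours. YJ1206 belongs to the proteolysis-targeting chimeras and tethers CDK12 and CDK13 to a ubiquitin ligase, which marks them for degradation. The same line was grown under the skin of male FVB mice that were dosed orally with vehicle or with 100 mg/kg of YJ1206, 3 doses a week. All 4 groups thus carry the human MYC background of a single line, and the tumors also hold cells of an immunocompetent host.

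CDK12 and CDK13 pair with cyclin K and phosphorylate the tail of RNA polymerase II during elongation. Loss of CDK12 is known for lowering long homologous recombination genes, and the question here is how the genes of the other repair routes responded. End joining religates broken ends, with the Ku dimer and DNA-PKcs holding them in the classical route and polymerase theta pairing short repeats in the alternative route. Mismatch repair removes replication errors, base excision repair starts with a glycosylase that cuts out a single damaged base, and nucleotide excision repair opens the helix with TFIIH and cuts out a stretch around bulky lesions.

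Total estimated counts per library were 18198086 to 18519926 with DMSO, 13936902 to 14869592 in YJ1206-treated cells, 15391544 to 26928365 in vehicle tumors and 18307820 to 22418665 in YJ1206 tumors. At these depths, 3 counts correspond to 0.151 to 0.231 CPM, that is, counts scaled to library size, in cells and 0.113 to 0.194 CPM in tumors. The library names of DMSO and YJ1206 cells carry numbers that do not adjoin. The labels name no preparation batch, so whether these groups were prepared apart is not given. If they were, library preparation and treatment cannot be told apart in culture. Of the epithelial and prostate luminal markers, Epcam, Cldn7, Pbsn and Tmprss2 were among those at 0 in every cell library, while the epithelial markers summed to 193 to 204 CPM with DMSO and 367 to 396 CPM with YJ1206, with 4 of 4 tested higher, and the luminal markers to 3181 to 3256 CPM and 2897 to 3075 CPM. Among the tumors, library 3 of each group lay between libraries 1 and 2. It lay between them in 99.3% of 279 genes that differed at least 2-fold between the other vehicle libraries, and in 99.2% of 125 such genes with YJ1206. Library 3 was the middle value for 20 of 38 tested repair genes in vehicle and 17 of 38 in YJ1206 tumors. The shares above took only genes with a mean CPM of at least 10 and that 2-fold difference. The repair gene counts used no such filter, so they cannot be set against those shares. How library 3 relates to the others is not given in the sources used here, and n = 3 counts it as a separate sample. Tumor calls were therefore also made without library 3 of both groups.

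In YJ1206-treated cells, 12 of 37 tested repair genes were higher and 19 were lower than with DMSO, and 6 did not pass the test (edgeR quasi-likelihood test, Benjamini-Hochberg adjusted p under 0.05 over all genes). Across the 11826 genes tested, 37.8% were higher and 38.3% lower, so that calls were common in the background (76.1% in either direction). The glycosylase genes Mutyh and Ogg1 and the DNA-PKcs gene Prkdc fell furthest, whereas the glycosylase gene Nthl1 and the TFIIH helicase gene Ercc3 rose furthest. The median log2 fold change of the 37 genes was -0.18, against -0.02 over all genes tested. Neil2 and Neil3 had 0 counts in all 6 cell libraries, which allows levels of up to 0.151 to 0.231 CPM. The number of higher genes depended on scaling. Scaling by total counts moved the median of all genes to -0.20 and gave 7 higher and 21 lower repair genes, and TPM values moved it to -0.26 and gave 3 higher and 20 lower. Of all calls, 49.7% were higher in the main fit, 36.1% with total counts and 29.3% with TPM. Relative to the median of all genes, the median of the repair genes stayed at -0.16 in each of these 3 fits. Of the 39 genes, 11 lay above and 19 below the DMSO libraries without overlap, where all genes gave 38.4% and 39.2% (77.5% together). A log2 fold change of at least 0.5 in size with a pass was seen in 17 genes, 4 higher and 13 lower, and in 44.0% of all genes.

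**Figure D1:**
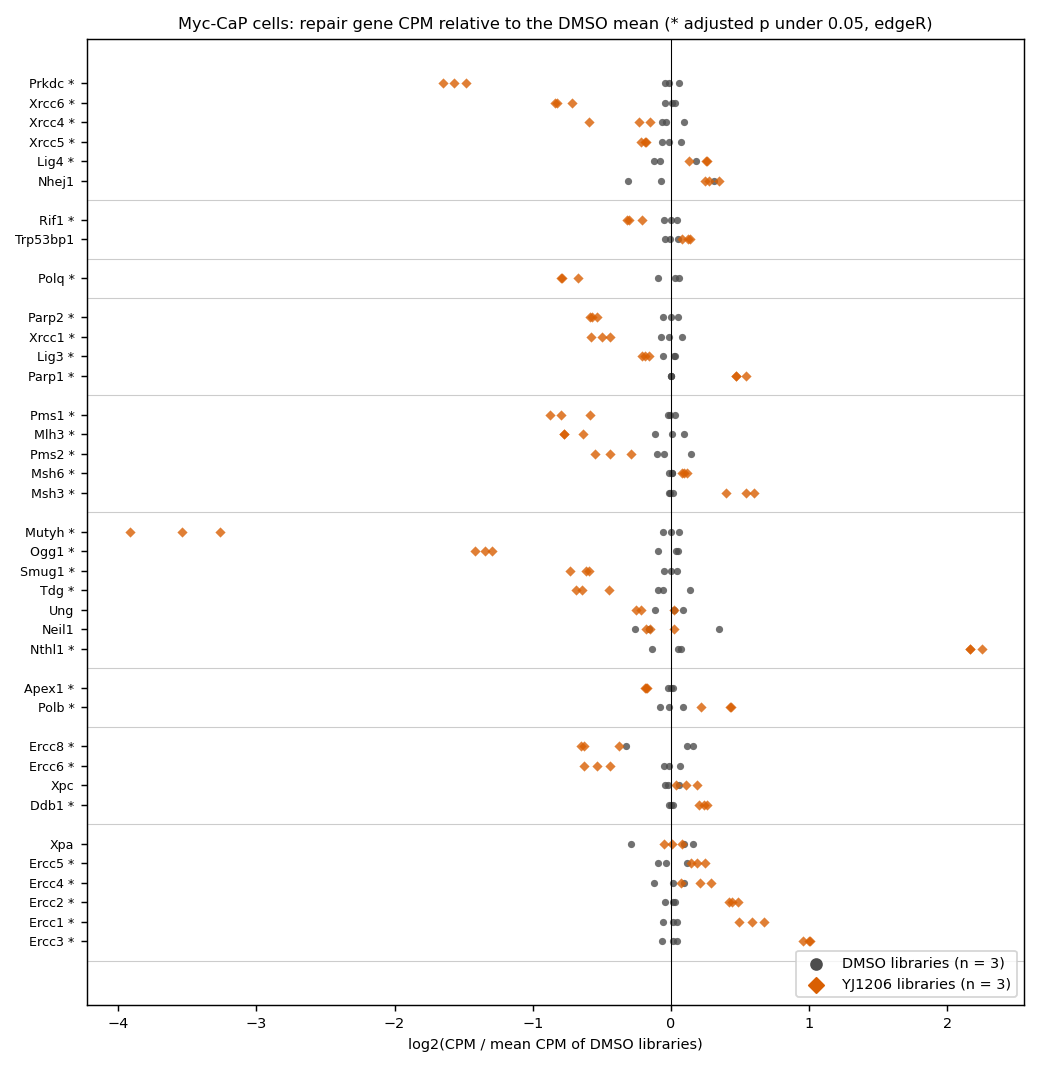
Log2 of CPM over the mean CPM of the DMSO libraries (horizontal axis) for each tested repair gene in cells, grouped by role; circles are DMSO libraries, diamonds are YJ1206 libraries, and an asterisk marks an adjusted p under 0.05. Mutyh, with a log2 fold change of -3.53, and Nthl1, with 2.19, lie farthest from the DMSO libraries.

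The promoters of genes that fell in both experiments were read from RefSeq (GRCm38.p6), from 250 bases before to 50 bases after the start. Of the 39 genes, 33 matched, with 36 promoters. Those of Mutyh, at the first of its 2 starts, and Polq are shown because these genes had the largest mean fall over the 2 experiments, and those of Apex1 and Tdg, chosen after their values were seen, because they hold the most of the motifs searched among genes that fell in both. Motifs are in capitals and were searched on both strands: the E-box CACGTG, the E2F sites TTTCCCGC, TTTGGCGC, TTTCGCGC and TTTGCCGC, and the CRE TGACGTCA.
Mutyh promoter, chr4:116807484-116807783, + strand: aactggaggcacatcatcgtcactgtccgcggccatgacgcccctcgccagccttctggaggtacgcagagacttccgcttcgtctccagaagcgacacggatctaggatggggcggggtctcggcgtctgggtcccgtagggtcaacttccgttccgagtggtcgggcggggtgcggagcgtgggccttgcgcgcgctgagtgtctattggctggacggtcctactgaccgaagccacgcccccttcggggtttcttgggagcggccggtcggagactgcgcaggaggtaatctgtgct
Polq promoter, chr16:37011536-37011835, + strand: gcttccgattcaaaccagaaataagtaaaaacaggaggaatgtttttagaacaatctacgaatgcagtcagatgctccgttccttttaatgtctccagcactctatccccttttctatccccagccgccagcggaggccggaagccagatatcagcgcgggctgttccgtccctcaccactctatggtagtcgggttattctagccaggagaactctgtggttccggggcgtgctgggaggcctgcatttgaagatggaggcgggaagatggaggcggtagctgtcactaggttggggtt
Apex1 promoter, chr14:50924699-50924998, + strand: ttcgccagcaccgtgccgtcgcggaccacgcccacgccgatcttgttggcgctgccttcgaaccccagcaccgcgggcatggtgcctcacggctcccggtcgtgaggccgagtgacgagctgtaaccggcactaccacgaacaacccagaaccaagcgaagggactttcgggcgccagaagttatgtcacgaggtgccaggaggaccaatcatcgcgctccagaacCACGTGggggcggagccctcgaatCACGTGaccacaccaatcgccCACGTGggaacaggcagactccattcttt
Tdg promoter, chr10:82629588-82629887, + strand: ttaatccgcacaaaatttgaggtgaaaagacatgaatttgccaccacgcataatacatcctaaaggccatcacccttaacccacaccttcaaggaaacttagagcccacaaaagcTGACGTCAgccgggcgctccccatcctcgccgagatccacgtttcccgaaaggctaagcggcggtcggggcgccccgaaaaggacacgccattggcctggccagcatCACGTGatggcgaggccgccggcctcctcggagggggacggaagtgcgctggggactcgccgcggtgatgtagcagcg

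In classical end joining, 4 of 6 genes were lower and 1 was higher in cells, where 38.3% of all genes tested were lower and 37.8% higher. Prkdc, which encodes the catalytic subunit DNA-PKcs, had 53.3, 49.6 and 50.7 CPM with DMSO and 18.3, 17.3 and 16.3 CPM with YJ1206. The groups lay far apart, at 51.2 ± 1.88 and 17.3 ± 1.01 CPM (SD, n = 3). The log2 fold change was -1.56 (SE 0.0670, edgeR adjusted p = 1.14e-17). Xrcc6, which encodes Ku70, had 63.9, 64.7 and 61.7 CPM with DMSO and 38.7, 35.4 and 35.9 CPM with YJ1206. Its groups did not overlap, with a log2 fold change of -0.79 (SE 0.0538, adjusted p = 2.72e-13). Xrcc5, for the partner subunit Ku80, fell by a smaller 0.20 on the log2 scale, and the ligase cofactor gene Xrcc4 by 0.31, although the TPM of Xrcc4 went the other way, as described with transcript length. Lig4, which encodes the ligase of this route, rose by 0.21, with overlapping libraries and a negative value of -0.07 on the TPM scale. Nhej1, for the accessory factor XLF, was measured at only 1.46 ± 0.322 and 1.79 ± 0.0647 CPM (SD, n = 3) and did not pass (log2 fold change 0.29, 95% interval -0.31 to 0.88).

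The polymerase theta gene Polq had 69.5, 70.8 and 63.9 CPM with DMSO and 42.8, 39.4 and 39.3 CPM with YJ1206. All 3 treated libraries lay below all 3 controls, with a log2 fold change of -0.75 (SE 0.0549, adjusted p = 1.37e-12). Of the genes that steer the choice of route, Rif1, which protects ends from resection, was lower by 0.28 on the log2 scale and its partner Trp53bp1 did not pass (0.11, 95% interval 0.00 to 0.23).

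Single-strand break repair split by gene, with 3 genes lower and 1 higher (38.3% and 37.8% of all genes tested). Parp1, the main poly(ADP-ribose) polymerase that senses nicks, had 262, 261 and 261 CPM with DMSO and 361, 380 and 362 CPM with YJ1206. It was the only member of this role to rise, by 0.50 on the log2 scale (SE 0.0292, adjusted p = 1.19e-14), and stayed higher with total counts (0.31) and TPM (0.19). Its relative Parp2 had 51.7, 53.5 and 49.5 CPM with DMSO and 34.3, 35.6 and 34.7 CPM with YJ1206. It moved the opposite way, by -0.57 (SE 0.0563, adjusted p = 6.89e-10), again without overlap. Xrcc1, the scaffold recruited to nicks, had 37.7, 33.8 and 35.2 CPM with DMSO and 25.1, 23.9 and 26.2 CPM with YJ1206, a log2 fold change of -0.51 (SE 0.0683, adjusted p = 1.93e-07). Lig3, its partner ligase, fell by 0.19.

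In mismatch repair, 2 of 5 genes were higher and 3 were lower (37.8% and 38.3% of all genes tested). Mlh3, a MutL partner, had 29.0, 33.6 and 31.6 CPM with DMSO and 18.3, 20.2 and 18.4 CPM with YJ1206 (log2 fold change -0.73, SE 0.0774, adjusted p = 2.53e-09). Pms1, another MutL partner, had 12.4, 12.8 and 12.5 CPM with DMSO and 6.87, 8.38 and 7.23 CPM with YJ1206 (-0.75, SE 0.113, adjusted p = 1.14e-06). Both fell clear of the control libraries, and Pms2, the main endonuclease of the pathway, fell by 0.42 but missed the threshold with TPM (-0.43, adjusted p = 0.103, limma). Msh3, which recognises larger loops, had 35.4, 34.8 and 34.7 CPM with DMSO and 51.1, 46.0 and 53.1 CPM with YJ1206. It rose by 0.52 (SE 0.0594, adjusted p = 1.03e-08), which shrank to 0.20 with TPM and there missed the threshold (adjusted p = 0.0504, limma). Msh6, for the recognition of base mispairs, rose by 0.10 in the main fit. It was called lower with total counts (-0.09, edgeR adjusted p = 0.0218) and with TPM (-0.22, limma adjusted p = 0.00141). Whether the counting used strand is not given in the sources used here, so reads of a repair gene and of a gene that overlaps it on the other strand cannot be told apart.

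The base excision glycosylases held the widest spread, with 4 of 7 tested genes lower, 1 higher and 2 not passing. Among all genes tested, 38.3% were lower and 37.8% higher. Mutyh, which removes adenine opposite oxidised guanine, had 5.80, 5.58 and 6.05 CPM with DMSO and 0.501, 0.604 and 0.385 CPM with YJ1206. The treated libraries held 7, 8 and 5 counts, against 113, 108 and 120. This was the deepest fall of the set, with a log2 fold change of -3.53 (SE 0.262, adjusted p = 1.72e-12), or 11.5-fold. Ogg1, which cuts out the oxidised guanine itself, had 17.9, 17.7 and 16.2 CPM with DMSO and 6.80, 7.02 and 6.46 CPM with YJ1206 (-1.35, SE 0.106, adjusted p = 5.58e-12). Smug1, a uracil glycosylase, had 33.8, 34.8 and 32.6 CPM with DMSO and 20.3, 22.0 and 22.3 CPM with YJ1206 (-0.65, SE 0.0699, adjusted p = 3.31e-09). These 3 genes did not overlap between groups, and 39.2% of all genes lay below DMSO without overlap. Tdg, which removes thymine from G:T mispairs and acts in DNA demethylation, had 45.4, 39.7 and 38.6 CPM with DMSO and 30.2, 25.6 and 26.4 CPM with YJ1206 (-0.59, SE 0.0732, adjusted p = 4.55e-08). Nthl1, which removes oxidised pyrimidines, went against the others. It had 2.57, 2.53 and 2.22 CPM with DMSO and 11.6, 10.9 and 10.9 CPM with YJ1206, a log2 fold change of 2.19 (SE 0.148, adjusted p = 2.14e-13), or 4.57-fold. Neither the uracil glycosylase gene Ung (-0.15, 95% interval -0.31 to 0.02) nor Neil1 (-0.10, -0.45 to 0.25) passed in the main fit. Ung was called lower in 5 of 12 alternatives. These include total counts (-0.33, edgeR adjusted p = 0.000486) and log2(TPM + 1) (-0.43, limma adjusted p = 0.00709). Downstream of the glycosylases, Apex1, the endonuclease that nicks abasic sites, fell by 0.18 and Polb, the gap-filling polymerase, rose by 0.36 in the main fit and by 0.04 with TPM.

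In nucleotide excision repair, of the 4 recognition genes, 2 were lower, 1 was higher and 1 did not pass, whereas 5 of the 6 opening and incision genes were higher and 0 were lower. The difference between these roles was not tested, and of all genes tested in cells 37.8% were higher and 38.3% lower. Of the opening and incision genes, 3 were higher with total counts, with DESeq2, without a filter, and without DMSO library 2 or YJ1206 library 1 or 2, and 1 was higher with TPM, where the median was -0.01. Ercc3, which encodes the XPB translocase of TFIIH, had 54.6, 56.0 and 51.9 CPM with DMSO and 109, 105 and 108 CPM with YJ1206. It rose by 0.99 (SE 0.0432, adjusted p = 1.80e-17) and was the gene of this role that passed in all 3 scalings. Ercc1, for the partner of the XPF nuclease, had 18.7, 19.1 and 17.9 CPM with DMSO and 29.7, 26.1 and 27.8 CPM with YJ1206 (0.59, SE 0.0767, adjusted p = 1.08e-07). Ercc2, for the XPD helicase of TFIIH, rose by 0.45, and the nuclease genes Ercc4 and Ercc5 by 0.19 each, with adjusted p values of 0.0434 and 0.0433. With TPM, Ercc1 and Ercc2 kept their direction without passing (0.18 and 0.08), while Ercc4 and Ercc5 turned to -0.10 each. Xpa, which checks the lesion, did not pass (0.02, 95% interval -0.28 to 0.31).

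On the recognition side, the transcription-coupled genes fell. Ercc6, for the CSB remodeler that acts on stalled RNA polymerase II, had 42.5, 41.5 and 44.8 CPM with DMSO and 29.7, 27.8 and 31.6 CPM with YJ1206 (-0.53, SE 0.0633, adjusted p = 2.03e-08). Ercc8, for the CSA subunit of the same pathway, had 12.8, 13.2 and 9.47 CPM with DMSO and 7.66, 9.13 and 7.54 CPM with YJ1206 (-0.55, SE 0.130, adjusted p = 0.000500). The gap between its closest libraries was narrow, at 9.13 and 9.47 CPM. Ddb1, for the adaptor of the CUL4 ubiquitin ligase, rose by 0.24 in the main fit, but was called lower with TPM (-0.10, limma adjusted p = 0.00333). Xpc, which starts global repair, did not pass (0.11, -0.04 to 0.26).

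In YJ1206 tumors, 14 of 38 tested repair genes were lower, 1 was higher and 23 did not pass, against 14.9% lower and 11.9% higher (26.8% in either direction) among the 15558 genes tested. Polq fell furthest, followed by Neil3 and Mutyh, and Xpc was the gene that rose. The median log2 fold change was -0.16, against 0.01 over all genes. Neil2 had at most 3 counts in any tumor library and was not tested. Of the 39 genes, 18 lay below the vehicle libraries and 3 above without overlap (22.8% and 21.8% of all genes, 44.6% together), and 7 passed with a log2 fold change of at least 0.5 in size (14.2% of all genes). Without library 3 of each group, edgeR called 0 repair genes and 1 gene in the whole table, while 8 repair genes, all lower, had an unadjusted p under 0.05. In that edgeR fit the 14 genes had log2 fold changes from -1.49 to -0.22 and adjusted p values from 0.134 for Polq to 0.381 for Xrcc6, and Xpc was at 0.48 (adjusted p = 0.302). These 4 libraries had also entered the calls, so the shared sign is a description. DESeq2 on the same 4 libraries called Polq, Msh6, Rif1 and Apex1 lower and 0 higher, and 1277 genes in the whole table. Removing library 3 of vehicle or of YJ1206 alone left 7 genes lower in each case.

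**Figure D2:**
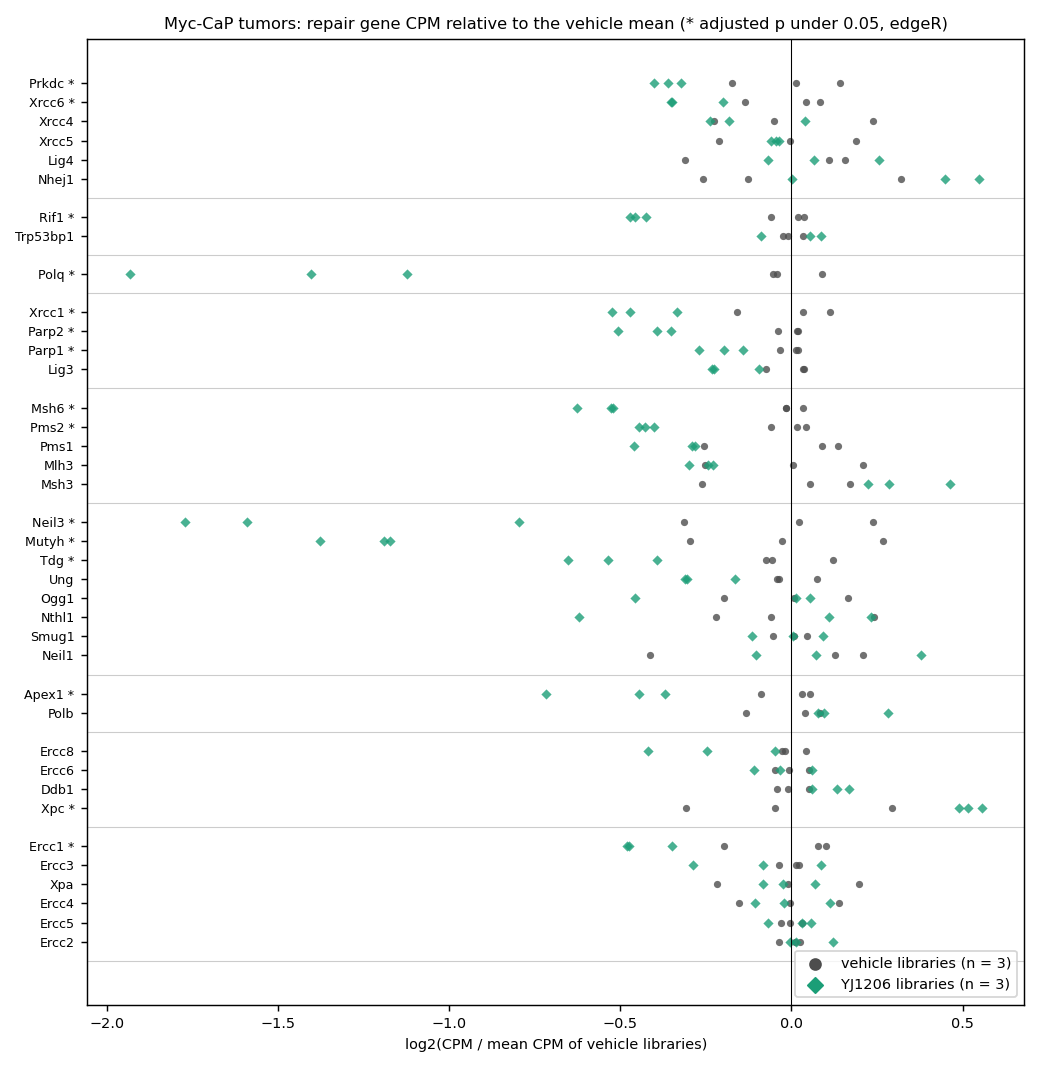
Log2 of CPM over the mean CPM of the vehicle libraries (horizontal axis) for each tested repair gene in tumors, grouped by role; circles are vehicle libraries, diamonds are YJ1206 libraries, and an asterisk marks an adjusted p under 0.05. Polq, Neil3 and Mutyh lie lowest, and Xpc is the starred gene to the right of 0.

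Polq had 43.0, 47.5 and 43.4 CPM in vehicle tumors and 11.7, 20.5 and 16.9 CPM in YJ1206 tumors. The libraries of the groups stood well apart, at 44.6 ± 2.49 and 16.3 ± 4.43 CPM (SD, n = 3). The log2 fold change was -1.45 (SE 0.186, edgeR adjusted p = 0.00263), and -1.49 without library 3 (adjusted p = 0.134). In the classical route, Prkdc fell by 0.36 (adjusted p = 0.0200) and Xrcc6 by 0.30 (adjusted p = 0.0383), and the other 4 genes did not pass. Both calls were lost without vehicle library 3 or any 1 of the YJ1206 libraries, where adjusted p ranged from 0.0540 to 0.0895 for Prkdc and from 0.0517 to 0.141 for Xrcc6. That of Xrcc6 was also lost without vehicle library 1 (0.0908), with TPM (0.0735) and with the replicate block (0.0910). Rif1 fell by 0.45 (adjusted p = 0.00190), from 256, 240 and 253 CPM to 186, 180 and 182 CPM. Trp53bp1 stayed within its spread (0.02, 95% interval -0.13 to 0.17).

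All 4 single-strand break genes lay below vehicle without overlap, and 3 passed. Of all genes tested in tumors, 22.8% lay below without overlap and 14.9% were called lower. Parp1 fell by 0.20 (adjusted p = 0.0325), Parp2 by 0.41 (adjusted p = 0.00776) and Xrcc1 by 0.44 (adjusted p = 0.0172), while Lig3 was at -0.18 (adjusted p = 0.0829). The call of Parp1 was lost with TPM (adjusted p = 0.0530, limma), with the replicate block (0.0602) and without vehicle library 1 or 3 or YJ1206 library 1 or 3 (0.0685 to 0.115). That of Xrcc1 was lost without vehicle library 3 or YJ1206 library 2 or 3 (0.0602 to 0.0817). Among mismatch repair genes, Msh6 had 73.5, 73.4 and 76.0 CPM in vehicle tumors and 48.2, 51.8 and 51.6 CPM in YJ1206 tumors. Its groups were tight and separate, with a log2 fold change of -0.56 (SE 0.0602, adjusted p = 0.00168). Pms2 fell by 0.42 (adjusted p = 0.00722), but not past the threshold with TPM (-0.32, adjusted p = 0.117, limma). Msh3 was at 0.33 (95% interval 0.03 to 0.62, adjusted p = 0.0977), above all vehicle libraries.

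Mutyh was also low in tumors, with 2.84, 4.2 and 3.43 CPM in vehicle and 1.53, 1.34 and 1.55 CPM with YJ1206. The groups did not overlap (-1.25, SE 0.213, adjusted p = 0.00636). Neil3, a glycosylase gene with 0 counts in every cell library, had 0.946, 0.750 and 1.10 CPM in vehicle and 0.273, 0.537 and 0.309 CPM with YJ1206. These values rest on 17 to 21 and on 5 to 12 counts, and the fall of 1.26 on the log2 scale (SE 0.364, adjusted p = 0.0397) was not called by DESeq2 (adjusted p = 0.0949), with the replicate block (0.0926), without a filter (0.0620), or without vehicle library 1 or 3 or YJ1206 library 1 or 3 (0.0897 to 0.147). Tdg had 25.6, 29.0 and 25.3 CPM in vehicle and 16.9, 20.3 and 18.4 CPM with YJ1206 (-0.52, SE 0.103, adjusted p = 0.0104). Apex1 had 64.3, 58.2 and 63.2 CPM in vehicle and 37.6, 45.5 and 47.9 CPM with YJ1206 (-0.50, SE 0.10, adjusted p = 0.0109). Both genes thus lay below every vehicle library. The call of Tdg was lost without YJ1206 library 3 (adjusted p = 0.0527) and that of Apex1 without vehicle library 3 (0.0532). In contrast, Ogg1 (-0.11, 95% interval -0.50 to 0.28), Smug1 (0.00, -0.20 to 0.19), Nthl1 (-0.05, -0.65 to 0.55) and Polb (0.16, -0.08 to 0.39) did not pass.

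Xpc had 47.0, 71.4 and 56.3 CPM in vehicle and 83.2, 81.7 and 85.6 CPM with YJ1206. The vehicle libraries were scattered and the treated libraries were tight, and the rise of 0.52 (SE 0.140, adjusted p = 0.0319) lost its call without vehicle library 3 (0.49, adjusted p = 0.114) or without any 1 of the treated libraries (adjusted p from 0.0811 to 0.113). Of the opening and incision genes, Ercc1 fell by 0.43 (adjusted p = 0.0227), a call lost without vehicle library 1 or 3 or YJ1206 library 2 or 3 (adjusted p from 0.0545 to 0.0960). The other 5 did not pass, with log2 fold changes from -0.09 to 0.04. The 95% intervals of those 5 genes reached from -0.34 to 0.32.

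Markers of other cells were summed in each tumor library. In bulk RNA, fewer cells of a type and less RNA per cell cannot be told apart. The 17 dividing-cell markers were all lower in YJ1206 tumors, with sums of 639 to 1257 CPM against 2693 to 2863 CPM. In culture the sums were 5845 to 5953 CPM with YJ1206 and 5759 to 5856 CPM with DMSO. These close sums hold opposite changes, with 6 markers higher and 8 lower, from -1.06 for Tyms to 0.92 for Aurka on the log2 scale. All 7 tested skeletal muscle markers were lower, with sums of 13.3 to 14.2 CPM against 32.9 to 864 CPM. Fibroblast markers summed to 540 to 1296 CPM against 772 to 2328 CPM, with 1 of 8 lower. Leukocyte markers summed to 208 to 278 CPM against 202 to 308 CPM, with 2 of 11 tested higher and 1 lower. Endothelial markers summed to 151 to 171 CPM against 130 to 147 CPM, with 1 of 8 higher, and adipocyte markers to 43.3 to 52.2 CPM against 33.3 to 36.8 CPM, with 1 of 3 tested higher. Prostate luminal markers summed to 4123 to 4431 CPM against 2649 to 3072 CPM, with 2 of 4 tested higher and 1 lower. Their part in the tumor values of the repair genes was not tested. In the cell libraries, leukocyte markers summed to 1.49 to 2.07 CPM with DMSO and 4.98 to 6.54 CPM with YJ1206, where Cd68, the 1 marker tested, was higher (2.06, adjusted p = 2.35e-07), and Ptprc, which all leukocytes express, was at 0.

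The YJ1206 effects in cells and tumors were compared gene by gene. Of 13 repair genes that passed in both, 10 were lower in both: Xrcc6, Prkdc, Rif1, Polq, Parp2, Xrcc1, Pms2, Mutyh, Tdg and Apex1. The tumor calls of Rif1, Polq, Parp2, Pms2 and Mutyh held with each single library left out, and those of the other 5 did not. Over all 2966 genes that passed in both, 58.7% had the same sign. Parp1, Msh6 and Ercc1 were higher in cells and lower in tumors in the main fits. However, Msh6 was called lower in cells with total counts and with TPM. The rise of Ercc1 missed the threshold with TPM (limma adjusted p = 0.109). The falls of Parp1 and Ercc1 in tumors lost their calls in 8 and 5 of 13 alternatives. Nhej1, Trp53bp1, Ung, Neil1 and Xpa passed in neither main fit, although Ung was called lower in cells with total counts and with TPM. Across the 37 genes, the log2 fold changes of cells and tumors had a Spearman rho of 0.55 and a Pearson r of 0.56, as a description over genes, which are not independent replicates. A test of the difference itself, as the interaction term over all 12 libraries, passed for 17 of 38 repair genes and for 46.8% of the 15328 genes tested (20.9% higher and 26.0% lower in tumors). The tumor effect was the lower for 10 of them, with Nthl1 (-2.27), Ercc3 (-1.11) and Ercc1 (-1.05) leading, and the higher for 7, with Mutyh (2.26), Ogg1 (1.21) and Prkdc (1.17) leading. The fit shares 1 estimate of spread over materials whose biological coefficients of variation were 0.0322 in cells and 0.139 in tumors. Dose, duration and route also differed between the experiments. By the labels, so did the RNA, polyA for cells and total for tumors, and the part of this was not tested.

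**Figure D3:**
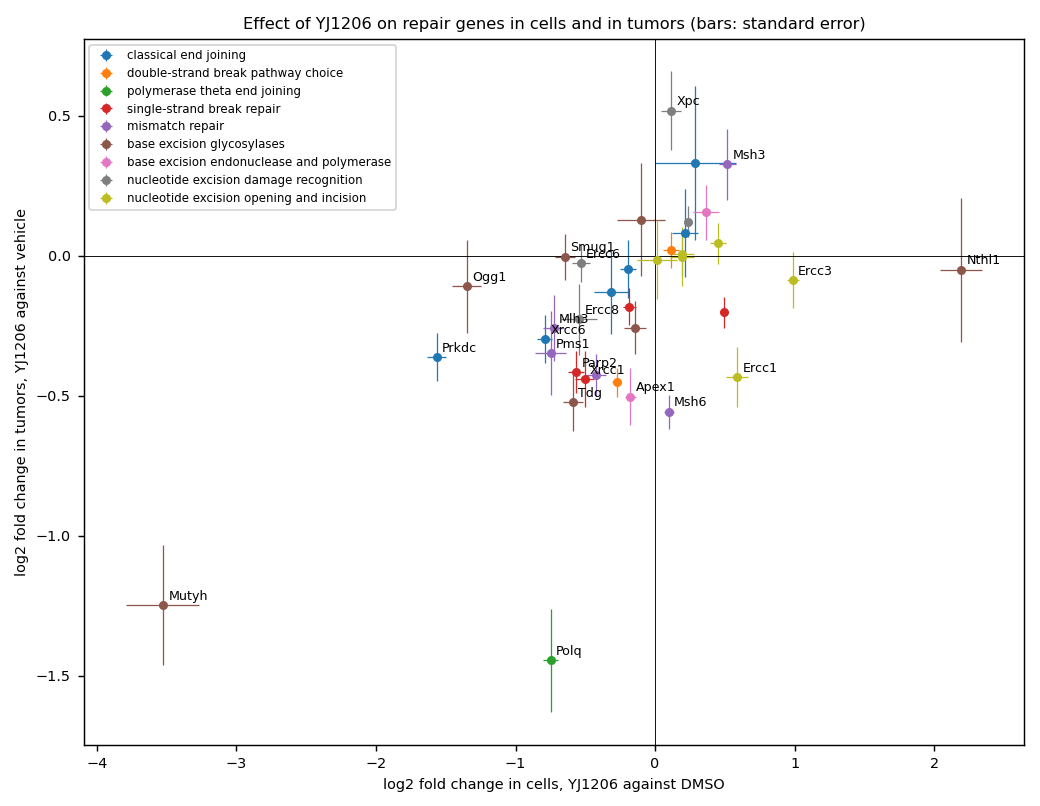
Log2 fold change with YJ1206 in cells (horizontal axis) against tumors (vertical axis) for the 37 repair genes tested in both, coloured by role, with bars of 1 standard error. Polq and Mutyh are low in both, and Nthl1 and Ercc3 lie far to the right at a tumor value near 0.

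Levels were compared between genes as deposited TPM, which is scaled for transcript length. Ddb1 was the most abundant repair transcript, at 503 ± 4.64 TPM with DMSO and 435 ± 4.47 TPM in vehicle tumors (SD, n = 3). Apex1 and Parp1 followed, with 216 ± 0.322 and 118 ± 1.23 TPM with DMSO. Among the glycosylases with DMSO, Ung (26.0 ± 2.13 TPM), Tdg (23.9 ± 3.08), Ogg1 (21.8 ± 1.06) and Smug1 (19.4 ± 0.664) stood in this order. Ung, Tdg and Ogg1 each differed from the next by no more than the larger SD of the pair, while Smug1 lay below Ogg1 by more than either SD. Mutyh (9.06 ± 2.44), Neil1 (6.42 ± 1.5) and Nthl1 (4.85 ± 0.351) were lower. After YJ1206 this order changed, with Nthl1 at 17.7 ± 0.725 TPM beside Ung at 19.1 ± 2.63, and with Ogg1 at 6.87 ± 0.340 and Mutyh at 0.560 ± 0.197. Prkdc, whose transcript is very long, had only 6.73 ± 0.267 TPM with DMSO and 1.84 ± 0.123 TPM with YJ1206. Its level in tumors was 13.0 ± 1.18 TPM with vehicle and 9.65 ± 0.226 TPM with YJ1206. The summed TPM of the 39 genes was 1535 to 1556 with DMSO, 1296 to 1316 in treated cells, 1262 to 1284 in vehicle tumors and 1152 to 1157 in YJ1206 tumors. The tables of cells and tumors list different gene sets, and the labels name polyA RNA for cells and total RNA for tumors. Levels in them therefore stand side by side without a test.

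**Figure D4:**
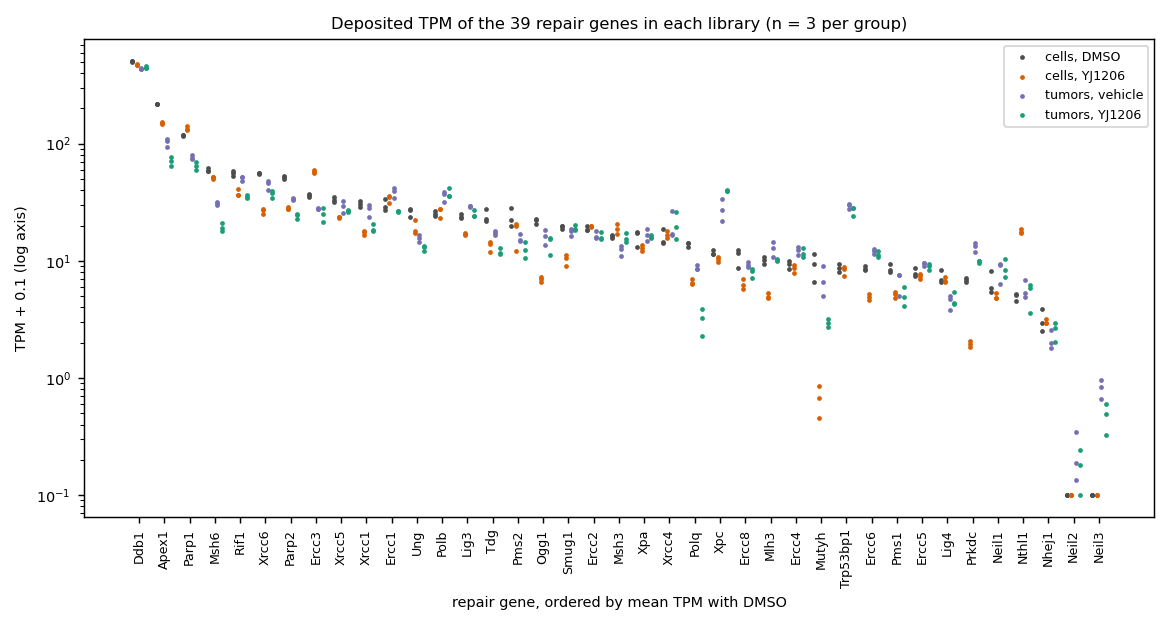
Deposited TPM plus 0.1 on a log axis for the 39 repair genes in each of the 12 libraries, ordered by mean TPM with DMSO (3 points per group). Ddb1 lies highest in all groups, and Neil2 and Neil3 lie at 0 in the cell libraries.

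Gene span was taken from the annotation, as a description. Over the repair genes, Spearman's rho between span and log2 fold change was -0.14 in cells (n = 37) and 0.06 in tumors (n = 38), against -0.05 and -0.04 over all genes tested. The 9 longest genes in cells, of 67.5 to 316 kb, held 1 higher and 6 lower gene, with a median of -0.31. The 10 shortest held 4 higher and 4 lower, with a median of -0.12. Of all 2819 tested genes in the longest range, 999 were higher and 1193 lower, with a median of -0.05. Of all 4252 in the shortest range, 1591 were higher and 1531 lower, with a median of -0.004. The deepest fall was that of a short gene, Mutyh, which spans 11.7 kb, and the next that of a long gene, Prkdc, of 204 kb.

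The ratio of counts to TPM gives the average length of the transcripts that were assigned to a gene, and was compared after the values were seen. It was centred on the median gene of each library. It was shorter without overlap in 5 of 36 repair genes in YJ1206-treated cells (14.1% of all genes) and longer in 11 (26.3%). Most of these differences were very small. The largest ratio to DMSO among the longer genes was 1.026, for Apex1. Of the shorter genes, Mlh3 had 0.989, Prkdc 0.996 and Ercc6 0.9965. Xrcc4, the member with the longest span (316 kb), stood apart. Its treated libraries had 0.506 to 0.726 of the mean DMSO length, and its DMSO libraries 0.886 to 1.07. The mean ratio was 0.606. Xrcc4 counts were 9.70, 10.6 and 9.47 CPM with DMSO and 8.45, 6.57 and 8.92 CPM with YJ1206, while TPM was 14.2, 18.7 and 14.2 with DMSO and 17.9, 16.5 and 15.5 with YJ1206. On the log2(TPM + 1) scale Xrcc4 was at 0.08, against -0.31 in counts. Pms1, of 108 kb, had a ratio of 0.803. A ratio of at most 0.8 was seen in 1 repair gene and in 3.25% of all genes. In tumors Xrcc4 had 0.870, with overlap, and 6 of 36 repair genes were shorter without overlap (6.15% of all genes) and 0 were longer (4.91%), with Smug1 the shortest at 0.874.

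**Figure D5:**
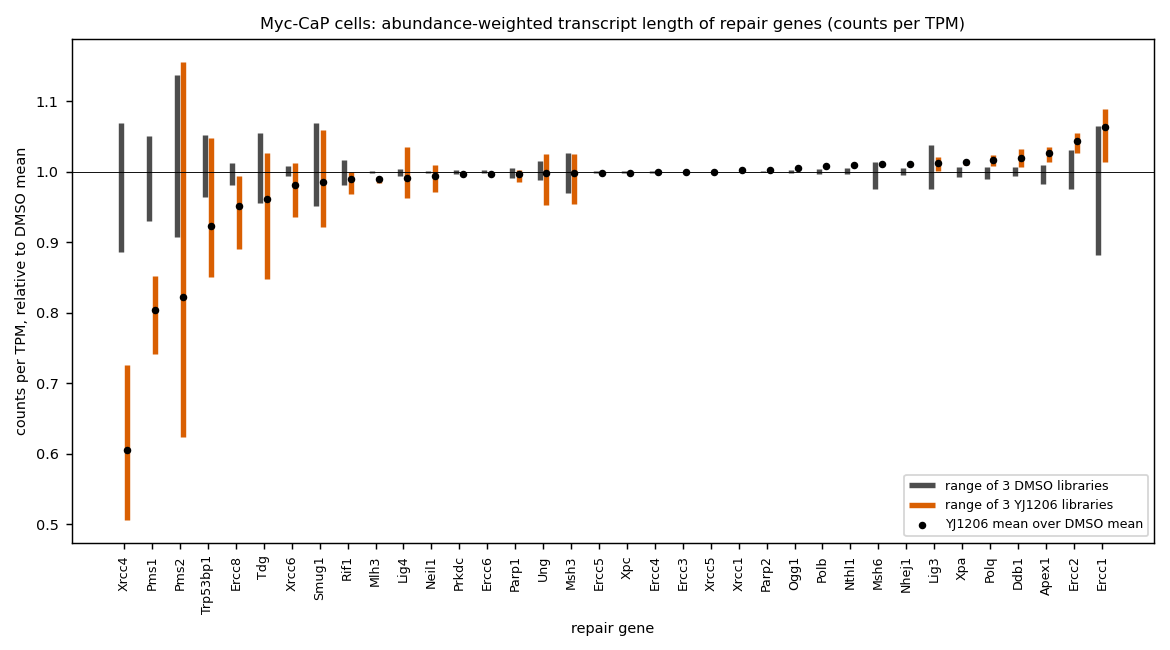
Estimated counts per TPM of the repair genes in cells, relative to the DMSO mean; bars span the 3 libraries of DMSO (grey) and of YJ1206 (orange), and black points give the ratio of group means. Xrcc4, at 0.606, and Pms1, at 0.803, fall below their DMSO libraries.

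Of the promoters shown for the genes that fell in both experiments, the printed Mutyh and Polq windows hold none of the letters searched. Apex1 has 3 E-boxes, at -24, 1 and 22 from the start, and Tdg has an E-box at -28 and a CRE at -135. An E-box occurred in 8 of the 36 promoters, or 22.2%, against 10.1% of promoters of genes tested in cells and 7.15% of all 32851. Its holders were Apex1, Ercc6, Ercc8, Lig3, Parp1, Parp2, Tdg and Xrcc5. In cells 7 of these 8 were lower and Parp1 was higher, while of all 1087 tested genes with an E-box 36.3% were lower and 42.6% higher. In tumors 4 of the 8 were lower and 0 higher, against 18.4% lower and 14.4% higher among all 1253 with an E-box. An E2F site occurred in 4 promoters, those of Msh3, Msh6, Nthl1 and Xrcc6 (11.1%, against 4.08% of promoters of genes tested in cells). In cells 3 of these 4 were higher and 1 lower, against 42.4% and 38.6% of all 448 tested genes with such a site. In tumors 2 of these 4 were lower, and of all 495 tested genes with such a site 33.5% were lower, against 15.2% of those without. A match is a description of letters and no evidence of binding.

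Other genes of the same pathways, 63 in all, were followed in the same fits. In cells 25 of 61 tested were higher and 27 were lower, close to the shares of all genes (37.8% and 38.3%). The largest falls were those of Parp3 (-1.66), which acts at broken ends, Pole (-1.45), the leading-strand polymerase, Mdc1 (-1.44), a mediator at broken chromatin, and Rfc5 (-1.25), a subunit of the clamp loader. The largest rises were those of Gtf2h4 (1.06) and Mnat1 (0.79), both TFIIH subunits, and of the end-joining factor Aplf (0.77) and polymerase Poll (0.74). Each of these 8 genes had an edgeR adjusted p of at most 2.73e-06 and no overlap between groups. In tumors 27 of 63 were lower and 1, Apex2 (0.25, adjusted p = 0.0205), was higher, while 35 did not pass (14.9% lower and 11.9% higher among all genes). The largest falls were those of Rfc4 (-1.29), the replicative ligase gene Lig1 (-1.14), Pole2 (-1.11) and Rfc3 (-1.04). Of the 14 repair synthesis genes, 12 were lower in tumors and 0 higher, with a median of -0.69, whereas in cells 6 were higher and 6 lower. The dividing-cell markers given above also fell in tumors. Pcna is one of these markers and also one of the 63 related genes, so the lists are not separate. The part of the dividing-cell markers was not tested.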

How the data were processed

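RNA sequencing libraries were 6 from cultured cells and 6 from tumors. The study's methods describe ribosomal RNA removal, in a section that names treated Myc-CaP cells. The labels instead name polyA RNA for cells, and total RNA for tumors. Which of these holds for the cell libraries is not given in the sources used here. The submitters' processing notes name kallisto and the builds GRCm38 and mm10; the version and annotation are not given in the sources used here. The authors deposited estimated counts per gene, not scaled between libraries, and TPM, scaled within each library for transcript length to a sum of 1000000. Groups and replicate numbers came from the labels, and dose from the study's methods.

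Estimated counts were rounded and fitted for each experiment in R 4.3.3 by the quasi-likelihood test of edgeR 4.0.16 after filterByExpr and TMM scaling, with Benjamini-Hochberg adjustment over all genes tested and a threshold of 0.05. CPM uses TMM-scaled library sizes. The SE was taken from the log2 fold change and its F statistic. The interaction was fitted over genes in both tables. DESeq2 1.42.0, limma 3.58.1 on log2(TPM + 1) and log2(TPM + 0.1) for genes with a TPM of at least 1 in 3 libraries, scaling by total counts, no filter, a replicate block and each library left out were alternatives. The steps were tested on simulated counts. Intervals and the limit of 3 counts cover counting error or library spread only; nothing in the labels ties libraries to separate cultures or mice beyond their numbers, so p-values measure the spread between libraries. No pair of libraries was identical, and chi-square per gene was 1.89 to 2.89 in cells and 3.65 to 49.4 in tumors.

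The members, gene lists and motifs were chosen with earlier results of these data known. Full statistics are given for members with an adjusted p under 0.05 and a log2 fold change of at least 0.5 in size, others by range or as the example of their role; members passing in neither experiment are named. Of related genes, at most the 4 largest rises and 4 largest falls per experiment are named. Coordinates are those of RefSeq promoters (GRCm38.p6), and spans come from GENCODE vM21, which matched all 39 genes. The length ratio was counted for genes with at least 20 counts in every library.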

Additional observations from a re-analysis of the deposited data

Results flagged for a closer look

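The YJ1206 effect differed between tumors and cells for 17 of 38 repair genes by the interaction test of edgeR (adjusted p under 0.05, 12 libraries). Of all 15328 genes tested, 46.8% passed the same test. Values are the tumor effect minus the cell effect on the log2 scale, and no cause was tested. The tumor effect was lower for Nthl1 (-2.27, SE 0.294, adjusted p = 3.04e-05), Ercc3 (-1.11, SE 0.103), Ercc1 (-1.05, SE 0.131), Parp1 (-0.73, SE 0.0627), Polq (-0.72, SE 0.195), Msh6 (-0.68, SE 0.0618), Ercc2 (-0.43, SE 0.0841), Apex1 (-0.35, SE 0.107), Rif1 (-0.20, SE 0.0647) and Ddb1 (-0.14, SE 0.0548, adjusted p = 0.0451). It was higher for Mutyh (2.26, SE 0.323, adjusted p = 7.13e-05), Ogg1 (1.21, SE 0.205), Prkdc (1.17, SE 0.106), Smug1 (0.61, SE 0.103), Ercc6 (0.48, SE 0.0926), Xrcc6 (0.47, SE 0.102) and Mlh3 (0.44, SE 0.146, adjusted p = 0.0238). On the log2(TPM + 1) scale the differences of Apex1 (-0.02, adjusted p = 0.877), Ercc2 (-0.10, adjusted p = 0.471) and Polq (-0.30, adjusted p = 0.201) did not pass by limma. That of Ddb1 lost its call in 11 of 18 alternatives and turned sign in 2. The difference of Mlh3 lost its call in 5 of 18, and that of Rif1 lost it in 2 and turned sign in 2. The cell and tumor treatments differed in dose, route and duration, and the labels name polyA RNA for cells and total RNA for tumors.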

How the results depend on the processing

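In cells, the 12 higher and 19 lower repair genes became 7 higher with total counts, 3 with log2(TPM + 1), 4 with log2(TPM + 0.1) and 8 without a filter, while lower genes numbered 18 to 21 in every alternative. Their median log2 fold change of -0.18 moved to -0.36, -0.43 and -0.45 with the first 3. Leaving out each library gave 9 to 11 higher, 18 to 20 lower and a median of -0.21 to -0.17. In tumors, leaving out each library gave 0 to 2 higher, 7 to 14 lower and a median of -0.22 to -0.15; with libraries 1 and 2 only, edgeR gave 0 and 0, and DESeq2, added after seeing the data, 0 higher and 4 lower. The interaction count of 17 ranged from 14 to 18. Signs turned in cells with total counts for Msh6 (-0.089), Trp53bp1 (-0.073), Xpa (-0.17) and Xpc (-0.074), and with log2(TPM + 1) and log2(TPM + 0.1), respectively, for Ddb1 (-0.098, -0.098), Ercc4 (-0.10, -0.11), Ercc5 (-0.098, -0.11), Lig4 (-0.066, -0.073), Msh6 (-0.22, -0.23), Nhej1 (-0.013, -0.011), Trp53bp1 (-0.070, -0.078), Xpa (-0.28, -0.30), Xpc (-0.18, -0.19) and Xrcc4 (0.085, 0.090). They turned in tumors with the same 2 scales for Ercc2 (-0.022, -0.023), Ercc5 (-0.059, -0.065), Smug1 (0.11, 0.12), Trp53bp1 (-0.13, -0.14) and Xrcc4 (0.014, 0.014), and with libraries 1 and 2 only for Ercc2 (-0.014), Ercc4 (0.0034), Ercc6 (0.040), Lig4 (-0.034), Nthl1 (0.074) and Trp53bp1 (-0.0055). For the interaction, with total counts and log2(TPM + 1), the sign turned for Ddb1 (0.073, 0.15) and Rif1 (0.013, 0.052). Genes whose sign turned when a library was left out ranged, in cells, from -0.22 to 0.11 for Neil1 and -0.11 to 0.096 for Xpa, and in tumors from -0.18 to 0.0015 for Ercc3, -0.077 to 0.076 for Ercc4, -0.020 to 0.042 for Ercc5, -0.072 to 0.010 for Ercc6, -0.047 to 0.16 for Lig4, -0.044 to 0.26 for Neil1, -0.22 to 0.16 for Nthl1, -0.20 to 0.034 for Ogg1, -0.058 to 0.047 for Smug1, -0.017 to 0.068 for Trp53bp1, -0.12 to 0.11 for Xpa, -0.23 to 0.0080 for Xrcc4 and -0.15 to 0.060 for Xrcc5; none of these had passed the test in that experiment. The causes were not tested. Same-numbered libraries did not deviate together (correlations from -0.03 to 0.01, and 0 of 3 numbers matched best in either experiment), so the numbers pair nothing; the replicate block gave 12 higher and 19 lower in cells, 1 higher and 11 lower in tumors and 17 for the interaction.

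Depth limits Neil2, Neil3, Mutyh and Nhej1, whose groups hold few counts.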
